A study of Mus musculus with 4 samples.

Results

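Id proteins and E proteins are helix-loop-helix transcription regulators, and 5 of their genes, Id1, Id2, Id3, Tcf3 and Tcf12, were followed here in regulatory T cells (Treg) of mouse spleen, out of 38924 genes in the count table. They were found by the Ensembl identifier of each symbol in the annotation, which matters for Tcf3, a symbol that has also been used for a factor of another family. The other genes of the 2 families are not part of the set. All 5 were present in the table, and 4 passed the filter on low counts, Id1 being the one that did not. In GENCODE M21 on GRCm38, Id1 lies on chromosome 2 from 152736251 to 152737410 and Id3 on chromosome 4 from 136143497 to 136145755, both on the plus strand. On the minus strand, Id2 lies on chromosome 12 from 25093799 to 25097140, Tcf3 on chromosome 10 from 80409514 to 80433647 and Tcf12 on chromosome 9 from 71842688 to 72111871. All 5 code for protein, and the values cover all their annotated transcripts together.

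Activated Treg and resting Treg were compared, with 2 RNA sequencing libraries of each from independent animals. Treg are CD4 T cells that carry the transcription factor Foxp3 and restrain immune responses. Both populations carry the same sort definition in the labels, CD4+Foxp3+CD62LhiCD44lo, so the gate as printed does not separate them. The labels give no strain, genotype, age or treatment of the animals. The title of the series concerns graded Foxo1 activity in Treg, and its design text sets the transcriptomes of the 2 populations side by side. The libraries are called activated A, activated B, resting A and resting B, and the letters pair nothing. Where a group has 2 values, that of library A stands before that of library B.

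E proteins bind DNA as dimers at short sites called E-boxes and drive many genes of lymphocyte development. Id proteins have the dimerisation part but lack the basic part that touches DNA, so an Id protein that pairs with an E protein keeps it off its sites. In mouse T cells Id3 is known as a gene switched on by T cell receptor signals, and Id2 as a gene of effector and innate-like lymphocytes. In mouse Treg, Id2 and Id3 together are known to keep the population stable. Counts here are of RNA, and the pairing takes place between proteins.

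A stretch of DNA just before the RefSeq start of Id2 is shown because Id2 was the member whose groups stood apart, and because it holds an E-box, the kind of site that E proteins bind. It is the minus strand of chr12:25096254-25096342 (GRCm38.p6, RefSeq), from 250 to 162 bases before that start. In GENCODE M21 it lies within the Id2 gene, in the first intron of the transcript Id2-202, which starts farther 5′, and before the starts of the other 2 Id2 transcripts. The capitals mark the E-box, written CANNTG.
Id2 stretch: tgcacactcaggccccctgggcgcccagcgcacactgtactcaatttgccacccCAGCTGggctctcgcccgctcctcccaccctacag
The E-box reads CAGCTG on both strands, its first base lies 196 bases before the start, and it was the only CANNTG in the 250 bases before that start. Of the 32851 RefSeq windows of this length, 66.22% held a CANNTG and 13.0% held a CAGCTG, so such a match is common. Id3 had no CANNTG in its window, Tcf3 had 1, and the windows of the 3 Tcf12 starts held 1, 1 and 0. These are matches of letters, and binding was not measured.

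The library totals lay between 20282062 and 31851982 counts. Levels are in CPM, counts scaled to a common total after correction by trimmed mean of M values (TMM), and 1 CPM stood for 20.3 counts in activated B, the library with the lowest total. The defining markers of Treg were at hand in all libraries: Foxp3 was at 37.5 and 36.6 CPM in the activated libraries, against 38.7 and 35.02 CPM in the resting libraries. Markers of other spleen cells were present too and differed between libraries, and their values stand beside the results below. By edgeR's quasi-likelihood test over 14235 genes, 0 genes passed an adjusted p of 0.05 in either direction; its unadjusted p was under 0.05 for 897 genes with a positive and 371 with a negative change, 6.3% and 2.61%. DESeq2 called 324 genes higher and 118 lower, 2.32% and 0.845% of the 13959 it gave an adjusted p.

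Id2 was the 1 member whose groups did not overlap. Its RNA was at 244 and 357 CPM in the activated libraries, against 89.5 and 103 CPM in the resting libraries. The lower activated library was 2.36 times the higher resting one. The means were 300.2 ± 79.6 CPM in activated and 96.4 ± 9.73 CPM in resting Treg (SD, n = 2 each), a ratio of 3.11. Both activated libraries lay above both resting ones in 19.8% of all genes tested and below them in 17.4%, so the separation alone is common here. In bulk libraries a change in the share of cells that express a gene and a change in RNA per cell cannot be told apart.

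The log2 fold change of Id2 was 1.64 ± 0.25 (SE), with a 95% interval of 1.01 to 2.27 by edgeR. Over all genes this did not pass, with an edgeR adjusted p of 0.266. Id2 shared this value, the smallest adjusted p of any gene, with other genes. Unadjusted, the edgeR p was 0.0011, rank 48 of the 14235 genes, while 6.3% of genes were higher at an unadjusted p under 0.05. DESeq2 called Id2 higher (adjusted p = 2.99e-06), as it did 2.32% of the genes it tested. limma-voom gave a log2 fold change of 1.61 and an adjusted p of 0.321. The estimate stayed between 1.33 and 1.89 when single libraries were left out.

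The authors' regularized log2 values, a scale on which low counts are drawn towards the gene's mean, carry the replicate numbers of the labels. On it Id2 was at 12.5 and 13.03 in activated replicates 1 and 2, against 11.2 and 11.4 in resting replicates 1 and 2. The difference was 1.49, and limma on these values gave an adjusted p of 0.218. On this scale too the 2 activated values lay above the 2 resting ones.

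**Figure D1:**
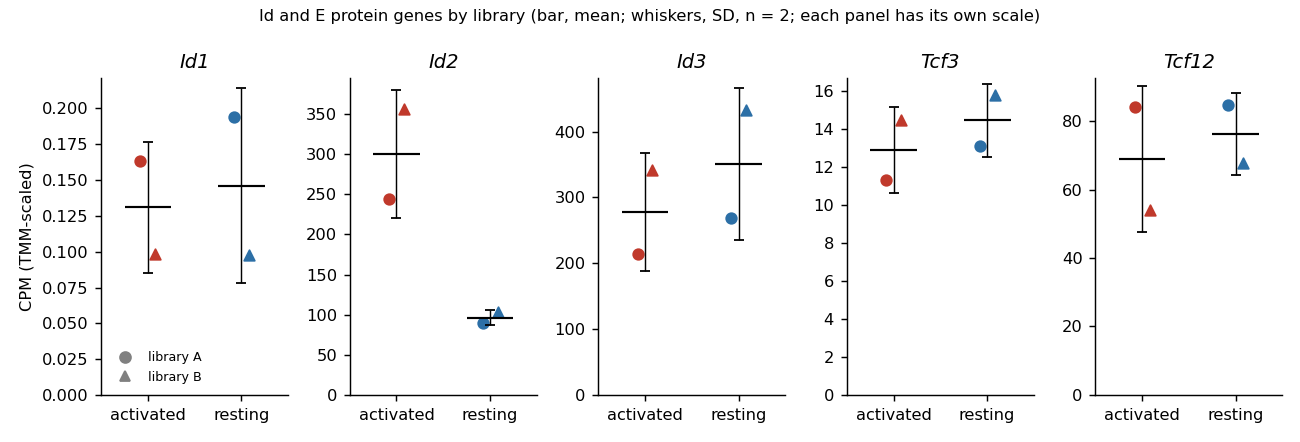
TMM-scaled CPM of the 5 genes in each library, with activated Treg on the left and resting Treg on the right of each panel, the mean as a bar and the SD as whiskers (n = 2). Id2 is at 244 and 357 CPM in activated Treg and at 89.5 and 103 CPM in resting Treg; in the other 4 panels the groups overlap.

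Id3 spread widely within each group. It was at 214 and 342 CPM in the activated libraries, against 269 and 433 CPM in the resting libraries, so that the groups overlapped. The means were 278 ± 90.1 CPM in activated and 351 ± 116 CPM in resting Treg (SD, n = 2 each). The log2 fold change was -0.34 ± 0.34 (SE), with a 95% interval of -1.20 to 0.53, and it did not pass (edgeR adjusted p = 0.950, DESeq2 adjusted p = 0.999). Library B held more Id3 than library A in both groups, 1.59 times as much in activated and 1.61 times in resting Treg. Without resting B the log2 fold change of Id3 was 0.029, the opposite sign.

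Id1, known mainly as an Id gene of endothelial, stem and other non-lymphoid cells, was close to absent. It had 5 and 2 counts in the activated libraries, against 4 and 3 counts in the resting libraries. The sums were 7 counts in activated and 7 counts in resting Treg, each with an exact Poisson 95% interval of 2.81 to 14.4 counts. Per total count the ratio of activated to resting was 1.06, with an exact 95% interval of 0.317 to 3.54, which covers counting error only. A difference in Id1 smaller than these bounds was not detectable at this depth.

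Division by gene length allows the genes to be set against each other. Per kb of exons, Id2 was at 100.1 and 146 CPM per kb in the activated libraries, against 36.7 and 42.4 CPM per kb in the resting libraries. Id3 was at 119.6 and 191 CPM per kb in the activated libraries, against 150.4 and 242 CPM per kb in the resting libraries. In activated Treg the ranges of Id2 and Id3 overlapped, and in resting Treg the Id3 level was above the Id2 level by more than the spread.

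The ratio of Id2 to Id3 per kb is read within a library and does not depend on scaling to the total. It was 0.836 and 0.767 in the activated libraries, against 0.244 and 0.175 in the resting libraries. Id2 made up 45.5% and 43.4% of the summed Id level per kb in the activated libraries, against 19.6% and 14.9% in the resting libraries. On the log2 scale the ratio was 1.95 higher in activated Treg, with SDs of 0.0891 in activated and 0.338 in resting Treg (n = 2 each). The difference kept its size under the other gene length, which cancels, and lay between 1.71 and 2.19 with single libraries left out. An exact permutation test of 2 libraries against 2 cannot go below a two-sided p of 0.333, so none was run.

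**Figure D2:**
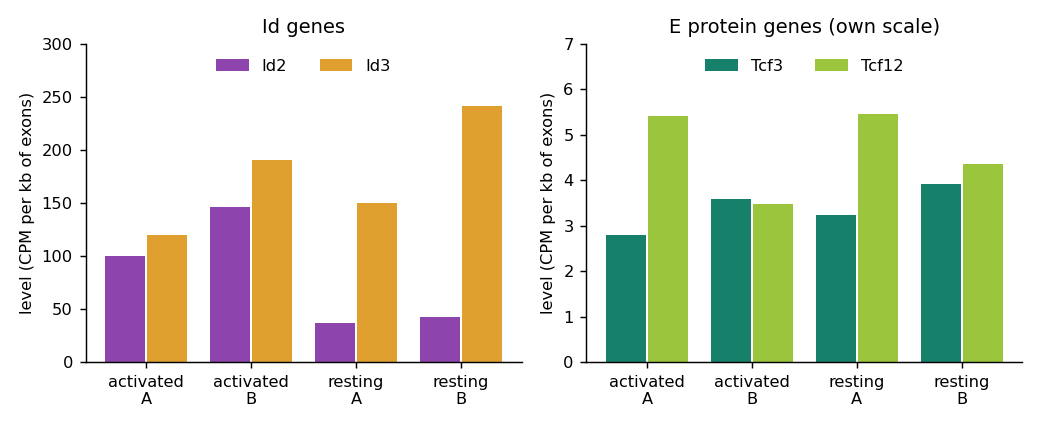
Levels in CPM per kb of annotated exons for Id2 and Id3 (left) and for Tcf3 and Tcf12 (right, on a scale of its own) in activated A, activated B, resting A and resting B. Id2 stands at 100.1 and 146 beside Id3 at 119.6 and 191 in the activated libraries, and at 36.7 and 42.4 beside 150.4 and 242 in the resting ones.

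Of the E protein genes, Tcf3 is the one best known from B and T cell development. It was at 11.3 and 14.5 CPM in the activated libraries, against 13.1 and 15.8 CPM in the resting libraries, and the groups overlapped. Its log2 fold change was -0.17 ± 0.28 (SE), with a 95% interval of -0.87 to 0.54 (edgeR adjusted p = 0.986, DESeq2 adjusted p = 0.999). Without activated A the value was 0.011. Its splice forms were not told apart.

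Tcf12, the gene of the E protein HEB, was at 84.1 and 54.0 CPM in the activated libraries, against 84.8 and 67.7 CPM in the resting libraries. The highest values of both groups were nearly equal, and the groups overlapped. The log2 fold change was -0.14 ± 0.28 (SE), with a 95% interval of -0.85 to 0.56 (edgeR adjusted p = 0.993, DESeq2 adjusted p = 0.999). Its sign turned without resting A (0.017) and without activated B (0.14). Tcf12 was higher in library A than in library B of each group, while Id2, Id3 and Tcf3 were higher in library B. Short genes annotated inside Tcf12, such as a pseudogene of Rpl15, lie in its span, and the sources used here do not say how reads over them were assigned.

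**Figure D3:**
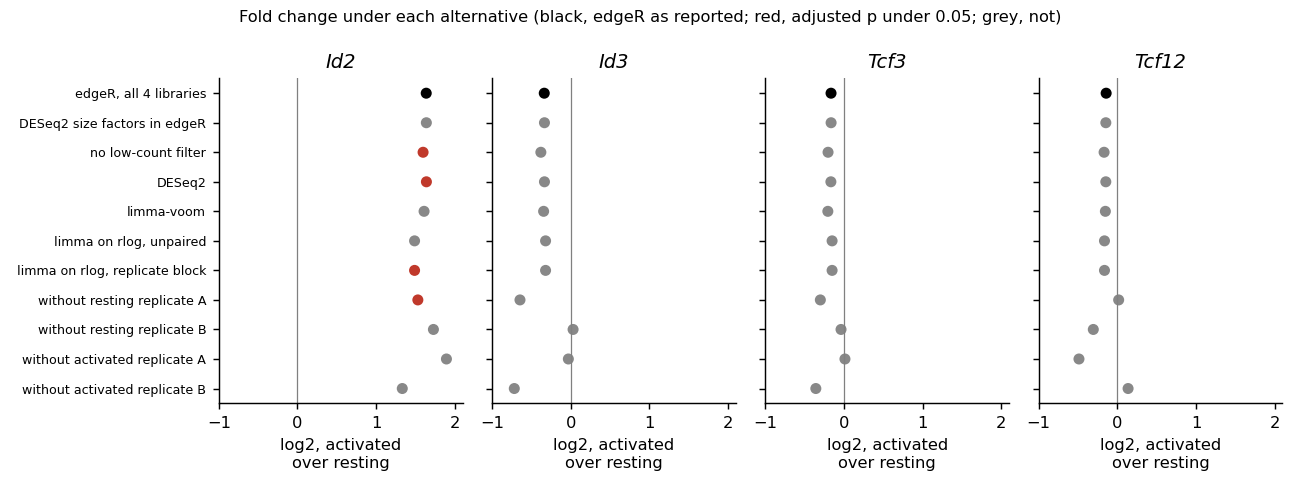
Log2 fold change of activated over resting Treg for the 4 tested members under edgeR with all 4 libraries (black) and under each alternative, in red where the adjusted p was under 0.05 and in grey where it was not. Id2 lies between 1.33 and 1.89 throughout; Id3, Tcf3 and Tcf12 each cross 0 when single libraries are left out.

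Per kb of exons both E protein genes were far below Id2 and Id3. Tcf12 was at 5.42 and 3.48 CPM per kb in the activated libraries, against 5.46 and 4.36 CPM per kb in the resting libraries. Tcf3 was at 2.80 and 3.59 CPM per kb in the activated libraries, against 3.25 and 3.92 CPM per kb in the resting libraries. From high to low, the order was Id3, Id2, Tcf12, Tcf3, Id1 in 3 libraries, and in activated B Tcf3 stood just above Tcf12. Tcf12 has a long set of annotated exons (15529 bases, against 6299 in its longest transcript), and per kb of the longest transcript it lay above Tcf3 in all 4 libraries, 3.48 and 1.74 times in the activated libraries, against 3.03 and 2.01 times in the resting libraries.

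The summed level of the 3 Id genes was many times that of Tcf3 plus Tcf12 in every library. The ratio of these sums per kb was 26.8 and 47.7 in the activated libraries, against 21.5 and 34.3 in the resting libraries, and the groups overlapped. On the log2 scale it averaged 5.16 ± 0.59 in activated and 4.76 ± 0.48 in resting Treg (SD, n = 2 each). The difference of 0.40 was smaller than the spread within either group and was -0.022 without activated B. Per kb of the longest transcript the linear ratio was 17.0 and 33.3 in the activated libraries, against 14.3 and 24.3 in the resting libraries.

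Markers of other cell types moved with the groups and with single libraries. The 8 T cell and Treg markers summed to 5746 and 6912 CPM in the activated libraries, against 5052 and 5917 CPM in the resting libraries. Of these 8, 4 were higher and 1 was lower in both activated libraries, beside 19.8% and 17.4% of all genes. Cd44 was at 329 and 335 CPM in the activated libraries, against 145 and 213 CPM in the resting libraries. DESeq2 called Cd44 alone of this list (adjusted p = 0.0417), and its edgeR adjusted p was 0.363. The 7 plasmacytoid dendritic cell markers summed to 1051 and 352 CPM in the activated libraries, against 117 and 131 CPM in the resting libraries. Of them 7 of the 7 were higher in both activated libraries, and 6 were called by DESeq2. Over all genes these shares were 19.8% and 2.32%. Bst2, Ccr9 and Irf8 made up most of the resting sums, with Bst2 at 54.6 and 71.1 CPM there. Siglech was at 279 and 58.7 CPM in the activated libraries, against 0.777 and 0.261 CPM in the resting libraries. The 7 conventional dendritic cell markers summed to 1335 and 342 CPM in the activated libraries, against 119 and 35.96 CPM in the resting libraries. Here too 7 of 7 were higher in both activated libraries, and 3 were called by DESeq2, beside the same shares over all genes. H2-Aa and H2-Ab1 made up most of this sum in every library. H2-Aa was at 636 and 153 CPM in the activated libraries, against 56.0 and 13.8 CPM in the resting libraries. Zbtb46 was at 9.18 and 7.54 CPM in the activated libraries, against 7.04 and 5.54 CPM in the resting libraries. Xcr1 was at 1.96 and 2.27 CPM in the activated libraries, against 0.437 and 0.717 CPM in the resting libraries. Klk1 of the first list and Clec9a of the second were at 0 in resting B. Siglech had 16 and 8 counts in the resting libraries, and Spib had 35 and 8. Siglech, Spib, Klk1 and Clec9a passed the filter only through the activated libraries, and each is among the DESeq2 calls. Dendritic cells of the conventional type are known to express Id2. Both sums were higher in activated A than in activated B, Id2 was at 244 and 357 CPM in these libraries, and without activated A its log2 fold change was 1.89. The part of dendritic cells in the Id2 difference was not tested.

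The 6 markers of NK and innate lymphoid cells, which also express Id2, summed to 114 and 187 CPM in the activated libraries. In the resting libraries they summed to 35.01 and 114 CPM. Nkg7 made up most of each sum. It was at 94.1 and 167 CPM in the activated libraries, against 28.4 and 107 CPM in the resting libraries, so that its groups overlapped. Of the 5 markers that passed the filter, 4 lay above 0 and 1 below 0. Zbtb16, which passed it only through the activated libraries, was at 2.32 and 1.38 CPM there, against 0.291 and 0.163 CPM in the resting libraries. It did not pass the test (edgeR adjusted p = 0.332, DESeq2 adjusted p = 0.0816). The NK cell receptor Klrb1c was at 11.7 and 15.7 CPM in the activated libraries, against 2.14 and 3.88 CPM in the resting libraries. DESeq2 called Klrb1c higher, its 1 call in this list, beside a share of 2.32% over all genes. The one below 0 was Eomes, a T-box factor of NK and CD8 T cells, at 0.882 and 0.591 CPM in the activated libraries, against 2.14 and 2.45 CPM in the resting libraries (edgeR adjusted p = 0.455). Ncr1, which defines NK cells, had 7 and 4 counts in the activated libraries and 0 counts in both resting libraries. The part of these cells in the Id2 difference was not tested.

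The 6 macrophage and monocyte markers followed the library more than the group, with 476 and 61.2 CPM in the activated libraries, against 397 and 13.4 CPM in the resting libraries. The 2 libraries with more of them were the 2 with less Id2, Id3 and Tcf3 and more Tcf12 in their group. The 6 B cell markers summed to 67.8 and 89.9 CPM in the activated libraries, against 43.2 and 61.5 CPM in the resting libraries, although of the 5 that passed the filter 1 lay above 0 and 4 below 0. The 2 CD8 T cell markers summed to 81.7 and 35.7 CPM in the activated libraries, against 30.4 and 27.2 CPM in the resting libraries. The 6 neutrophil and erythroid markers stayed under 10 CPM in sum in all libraries, at 7.91 and 1.68 CPM in the activated libraries, against 9.86 and 0.750 CPM in the resting libraries. The part of these cells in the values of Id2, Id3, Tcf3 and Tcf12 was not tested.

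**Figure D4:**
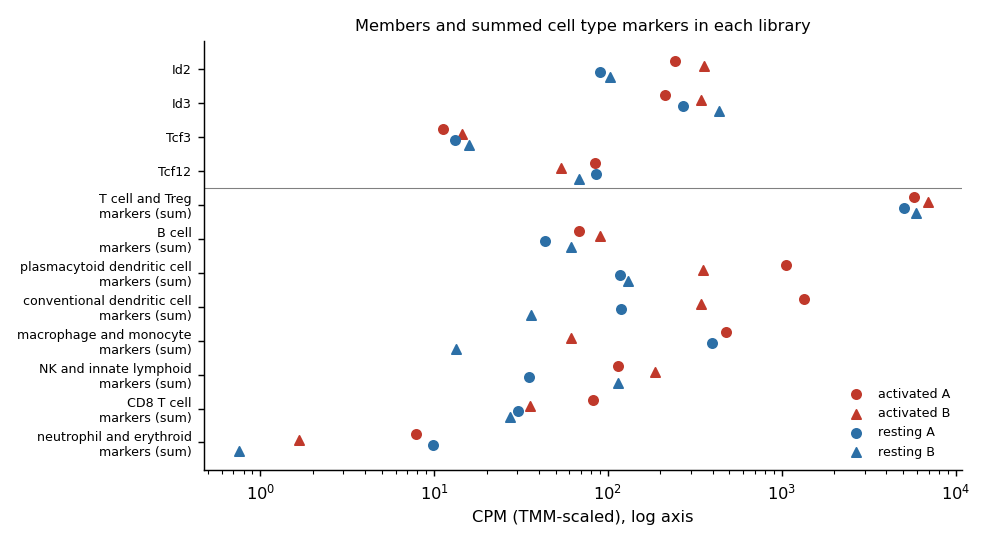
CPM on a log axis of Id2, Id3, Tcf3 and Tcf12 and the summed CPM of each cell type marker list, with 1 point per library. The plasmacytoid dendritic cell sums stand at 1051 and 352 in the activated libraries and at 117 and 131 in the resting ones, and Id2 at 244 and 357 in the activated libraries and at 89.5 and 103 in the resting ones.

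Set against Cd3e and Cd3g, which encode CD3 chains of the T cell receptor complex, in place of all counts, the libraries of a group drew together for Id2, Id3 and Tcf3 and moved apart for Tcf12 and Id1, a scaling chosen after the data were seen. The summed Cd3e and Cd3g level was 2414 and 3652 CPM in the activated libraries, against 2394 and 2884 CPM in the resting libraries. Per 100 CPM of this sum, Id2 was at 10.1 and 9.76 in the activated libraries, against 3.74 and 3.58 in the resting libraries, a log2 difference of 1.44. Id3 was at 8.88 and 9.35 in the activated libraries, against 11.3 and 15.01 in the resting libraries, a log2 difference of -0.51. With this scaling the groups of Id3 no longer overlapped, and the share of all genes without overlap under it was not computed.

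Tcf3 was at 0.468 and 0.397 per 100 CPM of that sum in the activated libraries, against 0.548 in each resting library, also without overlap, with a log2 difference of -0.35. Tcf12 still overlapped, at 3.48 and 1.48 in the activated libraries, against 3.54 and 2.35 in the resting libraries. This scaling lowers activated against resting Treg, compared with CPM, because the mean of the summed CD3 genes was higher in activated Treg. It was read as values with no test, and the non-overlap of Id3 and Tcf3 has no share of all genes to be set against.

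Proteins that work with the Id and E proteins were read as a list of 17 genes of helix-loop-helix relatives and E protein cofactors, of which 11 passed the filter. Of these, 6 lay above 0 and 5 below 0, with a median log2 fold change of 0.86; the median over all genes tested was -0.0072. By edgeR 0 of them were called over all genes, 2 positive and 0 negative changes had an unadjusted p under 0.05, and 2 were higher and 0 lower by DESeq2. Over all genes the shares were 6.3% and 2.61% at an unadjusted p under 0.05, and 2.32% and 0.845% by DESeq2. Lmo2, an adaptor that bridges helix-loop-helix factors, was at 3.63 and 1.28 CPM in the activated libraries, against 0.194 and 0.261 CPM in the resting libraries. Its log2 fold change was 3.05 ± 0.70 (SE), with an edgeR adjusted p of 0.33 and a DESeq2 adjusted p of 0.0323. Lmo2 had 4 and 8 counts in the resting libraries and passed the filter only through the activated libraries. So did Bhlhe41, with 8 and 9 counts in the resting libraries, Cbfa2t3, with 6 and 26, and Ascl2, with 14 and 8. All of these are among the genes above 0 and in the median, and Lmo2 and Cbfa2t3 are the 2 DESeq2 calls.

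Cbfa2t3, a corepressor of the ETO family that binds E proteins, was at 6.60 and 3.20 CPM in the activated libraries, against 0.291 and 0.848 CPM in the resting libraries (edgeR adjusted p = 0.346, DESeq2 adjusted p = 0.00917). Lmo2 and Cbfa2t3 were both higher in activated A than in activated B, like the summed dendritic cell markers, and the part of those cells was not tested. Bhlhe40, a helix-loop-helix repressor of activated T cells, was at 105 and 265 CPM in the activated libraries, against 28.0 and 86.9 CPM in the resting libraries, and did not pass (edgeR adjusted p = 0.580, DESeq2 adjusted p = 0.102). The coactivators Ep300, Crebbp and Kat2b, which E proteins recruit, had log2 fold changes of -0.29, -0.45 and -0.73 and did not pass by edgeR.

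The second list held 9 genes described as bound or driven by E proteins in T cells, of which 7 passed the filter. Of these, 6 lay above 0 and 1 below 0, with a median log2 fold change of 0.33. By edgeR 0 of them were called over all genes, 1 positive and 1 negative change had an unadjusted p under 0.05, and 1 was higher and 0 lower by DESeq2, beside shares over all genes of 6.3% and 2.61% unadjusted and of 2.32% and 0.845% by DESeq2. The called gene was Cxcr5, the receptor for B cell follicles, with a log2 fold change of 1.46 ± 0.22 (SE; DESeq2 adjusted p = 1.31e-05, edgeR adjusted p = 0.266).

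Foxo1, a forkhead factor of T cell quiescence, was the one with a negative sign, at a log2 fold change of -0.75 ± 0.20 (SE; edgeR adjusted p = 0.372, DESeq2 adjusted p = 0.0615). Cd4, the coreceptor of helper T cells, had a log2 fold change of 0.33 ± 0.17 (SE; edgeR adjusted p = 0.724). Of the recombination genes, Rag1 passed the filter only through the activated libraries, with a log2 fold change of 0.35 ± 0.79 (SE). Rag2 did not pass it. Nor did Ptcra, the gene of the pre-T cell receptor chain, which had 9 and 2 counts in the activated libraries, against 1 and 0 counts in the resting libraries.

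The third list held 15 genes of signals that act on Id genes: receptors and Smad factors of the BMP and TGF-beta pathways, and the Egr factors downstream of the T cell receptor. Of these, 13 passed the filter, 6 above 0 and 7 below 0, with a median log2 fold change of -0.075. By edgeR and by DESeq2 0 of them were called over all genes, and edgeR's unadjusted p was under 0.05 for 2 positive changes and 1 negative one, beside 6.3% and 2.61% of all genes. The positive ones were Egr2, at 97.3 and 163 CPM in the activated libraries, against 54.7 and 74.6 CPM in the resting libraries, and Bmpr1a, a BMP receptor, at 1.54 and 4.09 CPM in the activated libraries, against 0.874 and 0.848 CPM in the resting libraries. The negative one was Smad7, the inhibitory Smad, at 15.4 and 13.0 CPM in the activated libraries, against 27.5 and 21.6 CPM in the resting libraries. Their edgeR adjusted p values were 0.438, 0.540 and 0.445 and their DESeq2 adjusted p values 0.104, 0.481 and 0.218, in this order. Acvr1, among those above 0, had 3 and 10 counts in the resting libraries and passed the filter only through the activated libraries.

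**Figure D5:**
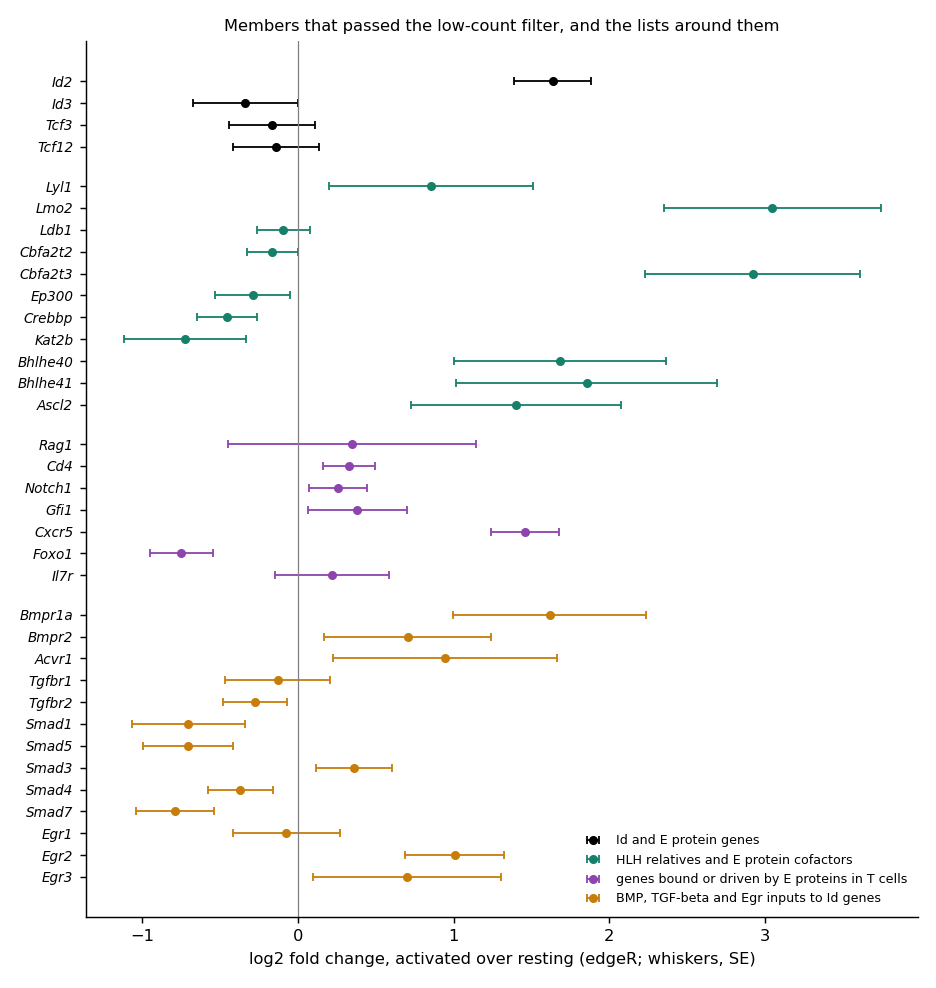
Log2 fold change of activated over resting Treg by edgeR, with its SE as whiskers, for the 4 members that passed the filter and for the genes of the 3 lists that passed it. Id2 stands at 1.64, while Id3 (-0.34), Tcf3 (-0.17) and Tcf12 (-0.14) each lie within 1 SE of 0.

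The genes whose pattern over the 4 libraries was most like each member were found by the distance between log2 CPM profiles centred on the gene's mean, among 6952 protein-coding genes (6953 for Tcf3) whose mean log2 CPM was 4 or more. For Id2 they were Gdpd5, a phosphodiesterase (distance 0.24), Cxcr5 (0.25) and Rnf43, a ubiquitin ligase (0.32). Cxcr5 was at 141 and 175 CPM in the activated libraries, against 50.2 and 64.6 CPM in the resting libraries. As for Id2, activated B was the highest library and resting A the lowest, a likeness for which these genes were chosen. For Id3 the nearest were Naglu, a lysosomal enzyme (0.048), Nsmce1 (0.097) and Dhrs4 (0.14).

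For Tcf3 the nearest were Yeats4, Ube2a and Ndufb5, at distances of 0.026, 0.031 and 0.032. For Tcf12 they were Mkln1, Rasa1 and Ubr3, at 0.025, 0.035 and 0.048. The likeness is a description over 4 libraries. The distances for Id2 were wider than those for the other 3 members.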

How the data were processed

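Libraries of sorted Treg RNA were amplified with a low-input SMART-seq kit, per the labels' protocols; such libraries carry no molecular identifiers, so the counting intervals, given for Id1, cover counting error only. STAR 2.4.0c, featureCounts, DESeq2 and the mm10 build are named, without roles, per the submitters' processing notes. The authors deposited raw counts per Ensembl gene and a table of regularized log2 values from DESeq2, per the file names; the sources used here do not give the annotation release, strand setting or read filters. Headings of the count table give the group only, repeating 1 replicate number, so its columns carry group names and letters.

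Symbols, positions and lengths came from GENCODE M21 (37607 of 38924 identifiers matched). Genes kept by filterByExpr (minimum count 10, minimum total 15) were tested with edgeR 4.0.16 (R 4.3.3), TMM scaling, group alone, and Benjamini-Hochberg adjustment over all genes. SE was taken as log2 fold change divided by the root of F, and its interval uses edgeR's residual and prior degrees of freedom; both are approximate. DESeq2 1.42.0, limma 3.58.1, other scaling, no filter and leaving out each library were alternatives. The fits were tested on simulated data. Text names the 5 members, the 3 list genes with the smallest p (plus any under 0.05, and others named after their values were seen) and the 3 nearest profiles. Members and lists were chosen with earlier results of these data known. Some genes of the lists were left out of every list count, median and sum and are not reported here.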

Additional observations from a re-analysis of the deposited data

How the results depend on the processing

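Id2 was higher in activated Treg under every alternative run. Its log2 fold change was past an adjusted p of 0.05 with no low-count filter (1.60), by DESeq2 (1.64) and on the regularized log2 values with the replicate block (1.49, adjusted p = 0.0140), and lay between 1.33 and 1.89 with single libraries left out, past the threshold without resting A only (1.53). Over all these fits its adjusted p ranged from 1.33e-08 to 0.321. Leaving out single libraries turned the sign of Id3 (from -0.72 to 0.029), Tcf3 (-0.36 to 0.011), Tcf12 (-0.49 to 0.14) and the log2 ratio of Id to E protein sums (-0.022 to 0.81); the cause was not tested. Genes called over the whole table numbered 675 higher and 177 lower with no filter, 324 and 118 by DESeq2, 629 and 190 with the replicate block, and 0 to 334 and 0 to 36 with single libraries left out; the cause was not tested. Without a filter Id1 had a log2 fold change of -0.10 (edgeR adjusted p = 0.999). The replicate numbers pair nothing in the labels, which describe independent animals; over genes, deviations of the same number correlated with r = 0.652 on the regularized log2 values. The headings of the count columns carry no usable number, so only the regularized log2 values were fitted with the block. For Id2, Id3, Tcf3 and Tcf12 the numbered replicates stood in the same order there as libraries A and B did in CPM, in both groups. With 1 library left in a group, that library is assumed to vary like the other group. Depth limits what the Id1 counts can show.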

Other observations

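With library A given before library B, several helix-loop-helix genes near the members were too low to be tested. Id4, the remaining Id gene, had 0 and 9 counts in the activated libraries and 0 counts in both resting libraries. Hey1, a repressor downstream of Notch, had 11 and 16 counts in the activated libraries, against 0 and 2 counts in the resting libraries, and Hes1, another Notch target, had 24 and 2 counts in the activated libraries, against 6 and 2 counts in the resting libraries. Tal2 had 2 counts in each activated library, against 14 and 2 counts in the resting libraries. Tal1, a partner of E proteins in blood progenitors, had 0 and 2 counts in the activated libraries and 0 counts in both resting libraries. Lyl1, its closest relative, passed the filter at 3.14 and 3.35 CPM in the activated libraries, against 0.777 and 2.71 CPM in the resting libraries, and did not pass the test (edgeR adjusted p = 0.891).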
